A study of Mus musculus with 6 samples.

Results

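The variable segments of the T cell receptor alpha and beta chains (gene symbols beginning with Trav and Trbv) were described in lung RNA from 6 libraries. The segments were selected on their measured counts: a Trav or Trbv row of the gene table entered when its counts summed over the 6 libraries reached 1. This left 111 segments, 89 Trav and 22 Trbv, of 165 such rows (130 Trav and 35 Trbv) in a table of 57180 rows, of which 29420 reached the same sum. Of the 54 rows left out, 2 had any count at all. Among the segments that entered, 13 had a summed count under 2 and were thus just inside the threshold, and 53 (34 Trav and 19 Trbv) reached 10. The study compared 3 lung libraries of wild-type mice (titled CS) with 3 of FTO-overexpressing mice (titled FTO_OE_CS). Mice of both groups had been exposed to cigarette smoke, and no group without smoke is described here. FTO is an RNA demethylase that removes methyl groups from adenosine in RNA. The sources used here do not give how the overexpression was made, in which cells it was driven, or the strain and age of the mice. Nothing in the labels ties each library to a mouse of its own, so p-values measure the spread between these libraries, which may in part be technical.

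Each developing alpha-beta T cell joins 1 variable (V) segment to a joining (J) segment in its alpha chain gene, and a V, a diversity (D) and a J segment in its beta chain gene, and then transcribes the rearranged gene together with a constant segment (Trac, or Trbc1 or Trbc2). The V segment encodes most of the variable domain that meets antigen, so the mix of V segments in a tissue's RNA reflects which T cells are in it and how much receptor RNA they make. In bulk tissue, fewer T cells and less receptor RNA per T cell cannot be told apart. Segments ending in d or n in their number lie in duplicated blocks of the alpha locus, and segments with dv in their name can also be used in delta chains.

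The libraries held between 16731850 and 21444907 counts in total. Fto itself averaged 68.2 ± 1.85 CPM (counts scaled to library size with edgeR's TMM factors; mean ± SD, n = 3) in wild-type libraries and 686 ± 48.4 in FTO-overexpressing libraries (edgeR quasi-likelihood test, adjusted p = 1.45e-05), so all libraries matched their genotype labels. Values below are given in the order of replicates 1, 2 and 3 of each group. J segment rows carried next to no counts: none of the 60 Traj and 14 Trbj rows reached a count of 1 summed over the libraries. V pseudogene rows were nearly empty, with 1 count for Trav9n-1 and 4 counts for Trbv24, both in FTO-overexpressing replicate 2. Counts of single segments were small, and this limits what each library can show.

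Sequence sharing between copies bore directly on the Trav counts. Of the 111 segments, 109 matched an entry of GENCODE M21 (mouse GRCm38). Among the Trav segments 12 pairs had identical coding sequences, and in all 12 pairs both members had equal counts in all 6 libraries. Trav12d-2 and Trav12n-2 are such a pair, with all 341 coding bases identical, and their counts are therefore summed below. The third copy, Trav12-2, is 95.9% identical to them. Trbv12-2 and Trbv12-1 are 88.2% identical, and Trbv16 shares 51.2% of aligned bases with Trbv12-2. The sequences of the segments that stood out in single libraries or between groups are shown from GENCODE M21, as the last 300 bases of the coding sequence, 5′ to 3′, ending where the segment joins D or J. Capitals mark bases that differ from the other copy of the same family, that is between Trav12d-2 and Trav12-2 and between Trbv12-2 and Trbv12-1. Trbv16 is shown without capitals because it has no such copy.
Trav12d-2: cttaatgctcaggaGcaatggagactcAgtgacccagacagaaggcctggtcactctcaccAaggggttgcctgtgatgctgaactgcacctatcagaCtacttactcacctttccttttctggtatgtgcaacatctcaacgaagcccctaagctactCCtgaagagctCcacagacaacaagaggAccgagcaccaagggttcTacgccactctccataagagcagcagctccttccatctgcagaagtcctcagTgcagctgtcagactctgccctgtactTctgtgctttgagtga
Trav12-2: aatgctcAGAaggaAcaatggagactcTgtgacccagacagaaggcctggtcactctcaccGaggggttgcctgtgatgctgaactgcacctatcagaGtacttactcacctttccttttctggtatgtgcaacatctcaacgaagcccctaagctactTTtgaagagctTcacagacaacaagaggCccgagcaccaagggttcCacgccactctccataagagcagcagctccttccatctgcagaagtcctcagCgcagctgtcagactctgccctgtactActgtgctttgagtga
Trbv12-2: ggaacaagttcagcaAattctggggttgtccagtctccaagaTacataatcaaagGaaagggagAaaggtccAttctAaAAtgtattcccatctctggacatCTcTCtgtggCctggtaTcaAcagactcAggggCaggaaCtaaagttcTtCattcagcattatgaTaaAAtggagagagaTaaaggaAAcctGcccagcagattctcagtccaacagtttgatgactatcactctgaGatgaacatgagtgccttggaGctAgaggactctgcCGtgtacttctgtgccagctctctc
Trbv12-1: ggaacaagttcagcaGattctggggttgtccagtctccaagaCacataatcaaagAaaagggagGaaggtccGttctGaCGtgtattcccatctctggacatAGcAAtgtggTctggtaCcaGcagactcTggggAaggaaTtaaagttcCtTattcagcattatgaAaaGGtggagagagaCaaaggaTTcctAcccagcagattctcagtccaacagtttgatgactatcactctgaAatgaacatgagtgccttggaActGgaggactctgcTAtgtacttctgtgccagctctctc
Trbv16: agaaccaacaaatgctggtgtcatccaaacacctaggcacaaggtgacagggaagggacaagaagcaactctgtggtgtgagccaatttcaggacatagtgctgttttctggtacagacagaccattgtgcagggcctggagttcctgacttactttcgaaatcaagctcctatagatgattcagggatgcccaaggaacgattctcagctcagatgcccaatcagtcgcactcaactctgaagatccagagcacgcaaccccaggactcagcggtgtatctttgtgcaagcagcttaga
The Trav12 stretches differed at 11 aligned bases plus a gap of 3 bases, whereas no read within the coding sequence can separate Trav12d-2 from Trav12n-2. The printed Trbv12 stretches differed at 32 bases.

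Summed V segment RNA was higher in every FTO-overexpressing library than in every wild-type library, for both chains. Summed Trav reads numbered 66.7, 74.0 and 55.0 counts in wild-type libraries and 160, 173 and 400 in FTO-overexpressing libraries. At the level of CPM these were 3.61, 3.89 and 3.03 against 8.13, 9.84 and 18.4, or 3.51 ± 0.440 against 12.1 ± 5.53 (mean ± SD, n = 3), a ratio of means of 3.46. FTO-overexpressing replicate 3 was the highest library and the other 2 of its group lay close together; without it the ratio was 2.56. Summed Trbv reads numbered 123, 131 and 73.0 counts against 251, 274 and 674, and their level was 6.66, 6.87 and 4.02 CPM against 12.8, 15.6 and 31.1 CPM. The means were 5.85 ± 1.59 and 19.8 ± 9.86 CPM, a ratio of 3.38, or 2.42 without FTO-overexpressing replicate 3. No test was run on these sums, since the segments were chosen with results of these libraries known.

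The constant segments and CD3 genes differed between groups by ratios close to those of the V segments. Trac, the alpha constant segment, was 3.12 times and Trbc1 with Trbc2, the beta constant segments, 3.71 times as high in FTO-overexpressing libraries, and the summed CD3 genes (Cd3d, Cd3e, Cd3g and Cd247, the signalling subunits of the receptor) 3.43 times. Per 100 Trac counts there were 38.1, 40.7 and 50 Trav counts in wild-type libraries and 41.3, 48.1 and 48.3 in FTO-overexpressing libraries. Per 100 Trbc counts there were 42.6, 48.1 and 41.0 Trbv counts against 37.0, 39.7 and 42.1. Both ratios overlapped between groups, as did Trav counts per Trbv count (0.542 to 0.753 and 0.594 to 0.638). Trac counts per Trbc count did not overlap: 0.606, 0.669 and 0.618 in wild-type libraries and 0.570, 0.522 and 0.518 in FTO-overexpressing libraries. Summed segments of the gamma and delta chains, used by the other T cell lineage, overlapped between groups: summed Trdv stood at 0.644 ± 0.280 and 0.473 ± 0.0295 CPM, and summed Trgv at 0.717 ± 0.0649 and 0.917 ± 0.235 CPM. Their constant segments Trdc (2.42 and 1.62 CPM on average) and the sum of Trgc1 to Trgc4 (3.90 and 3.55 CPM) overlapped too. Single genes within these sums did stand apart, and Trgc1, Trgv6 and Trgv4 are named for that reason. Trgc1 was lower in FTO-overexpressing libraries (1.79, 1.63 and 2.26 against 1.57, 0.682 and 1.43 CPM; edgeR adjusted p = 0.683). Trgv6 had 5, 5 and 6 counts against 2, 3 and 2, and Trgv4 had 2, 3 and 2 against 9, 3 and 5, higher in CPM without overlap.

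**Figure D1:**
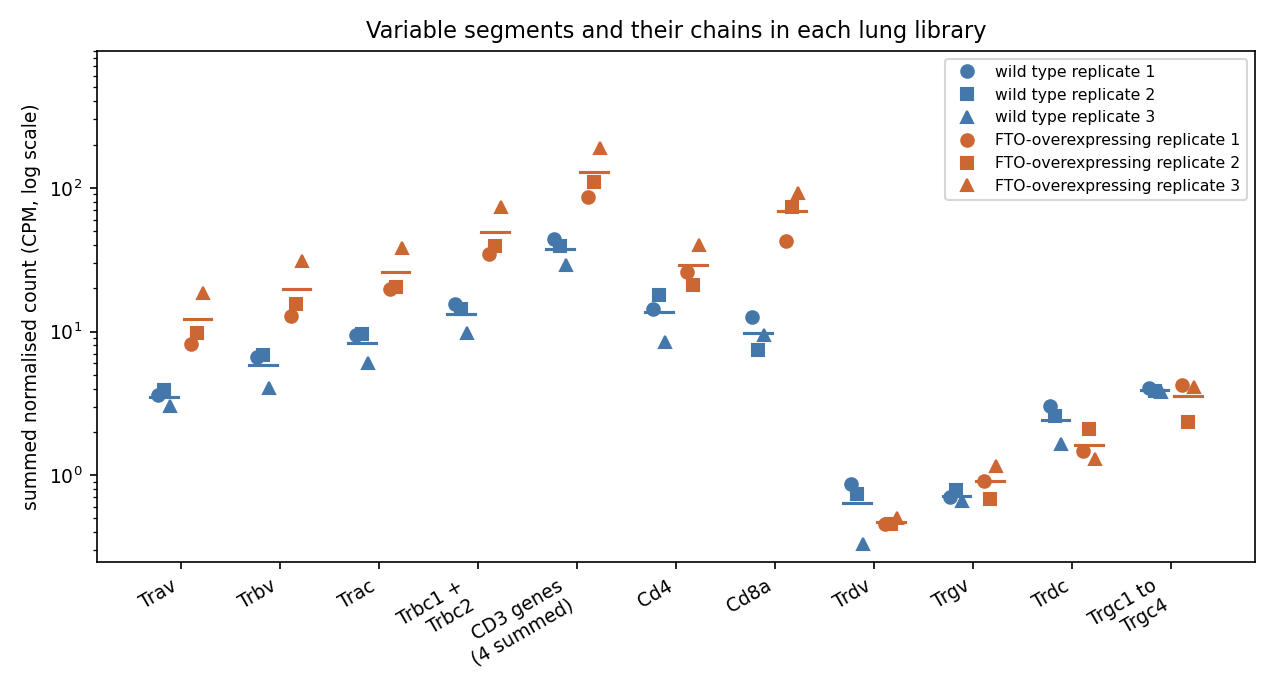
Summed TMM-normalised counts (CPM, log scale) of V segments, constant segments, CD3 genes and co-receptors in each library; points are libraries, short bars are group means. Trav, Trbv, Trac, Trbc, CD3 genes, Cd4 and Cd8a lie above the wild-type range in all 3 FTO-overexpressing libraries, while the summed gamma and delta chain sets overlap.

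The higher sums were spread over many segments. Mean CPM was higher in FTO-overexpressing libraries for 98 of the 111 segments (78 of 89 Trav and 20 of 22 Trbv). All 3 FTO-overexpressing libraries lay above all 3 wild-type libraries for 30 segments (18 Trav and 12 Trbv), or 27.0%, against 5.9% of the 29420 rows with a summed count of at least 1. The opposite order held for 0 segments, against 5.1% of those rows. Because a segment seen in 1 group alone could enter by its summed count, these shares are a description and not support for a difference. No counts were seen in any wild-type library for 16 segments, and in any FTO-overexpressing library for 3. Of the difference in mean Trbv level, Trbv12-2 made up 17.2% and Trbv16 14.4%, and the 6 segments that contributed most made up 61.5%. Of the Trav difference, Trav12d-2 and Trav12n-2 made up 14.4% together.

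Only 10 of the 111 segments, all Trbv, passed the filter on low counts and could be tested among the 16989 genes of the edgeR quasi-likelihood fit. None of them passed an adjusted p of 0.05 (0 higher and 0 lower), where 0.0765% of all genes tested were called higher and 0.0177% lower in FTO-overexpressing libraries. At an unadjusted p under 0.05, 7 of the 10 segments were higher and 0 lower, against 5.77% and 3.67% of all genes. In 7 of the 10 all FTO-overexpressing libraries lay above all wild-type ones, against 7.96% of genes tested. A segment could pass the filter through its counts in 1 group alone, so nothing is read from these counts of segments. DESeq2 called 2 segments higher, Trbv16 (adjusted p = 0.00101) and Trbv12-2 (adjusted p = 0.00404), edgeR without the filter called the same 2, and limma-voom called 0. Across all settings tried, the smallest adjusted p of any segment ranged from 0.00101 to 0.447.

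Trbv16 was the segment with the smallest p in the edgeR fit. It was read at 8, 8 and 1 counts in wild-type libraries and at 29, 37 and 73 counts in FTO-overexpressing libraries, or 0.434, 0.420 and 0.055 CPM against 1.47, 2.10 and 3.37 CPM. All 3 FTO-overexpressing libraries were above the wild-type ones, and wild-type replicate 3 was lowest with a single count. The fitted fold was 7.49 (95% interval 2.88 to 19.4; edgeR adjusted p = 0.140). Its share of Trbv counts was also apart between groups, at 6.51%, 6.11% and 1.37% in wild-type libraries and 11.6%, 13.5% and 10.8% in FTO-overexpressing libraries. Single-library intervals of wild-type replicates 1 and 2, 2.85% to 12.4% and 2.67% to 11.7%, overlapped those of all FTO-overexpressing libraries, the lowest of which began at 7.88% (exact Clopper-Pearson, 95%). The interval of wild-type replicate 3, 0.0347% to 7.4%, lay below them. Such intervals cover counting error only, as no molecular identifiers were used.

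Trbv12-2 had the largest fitted fold of the 10 segments tested and depended on which library was read. Its counts were 8, 1 and 3 in wild-type libraries and 11, 32 and 119 in FTO-overexpressing libraries, so the groups did not overlap in CPM (0.434, 0.0525 and 0.165 against 0.559, 1.82 and 5.49). The fitted fold was 11.9 with a wide interval of 2.51 to 56.3 (edgeR adjusted p = 0.249). Its share of Trbv counts did overlap: 6.51%, 0.764% and 4.11% in wild-type libraries and 4.38%, 11.7% and 17.7% in FTO-overexpressing libraries. FTO-overexpressing replicate 1 was below wild-type replicate 1, and FTO-overexpressing replicate 3 had the largest share. The interval of replicate 3, 14.8% to 20.7%, overlapped that of FTO-overexpressing replicate 2, 8.13% to 16.1%, and lay above the rest. The ratio of mean shares was 2.96 and ranged from 2.12 to 4.61 when 1 library was left out. The related Trbv12-1 was read at 3, 2 and 5 counts against 7, 5 and 18 and took 2.43% of Trbv counts on average in FTO-overexpressing libraries, against 3.61% in wild-type libraries.

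**Figure D2:**
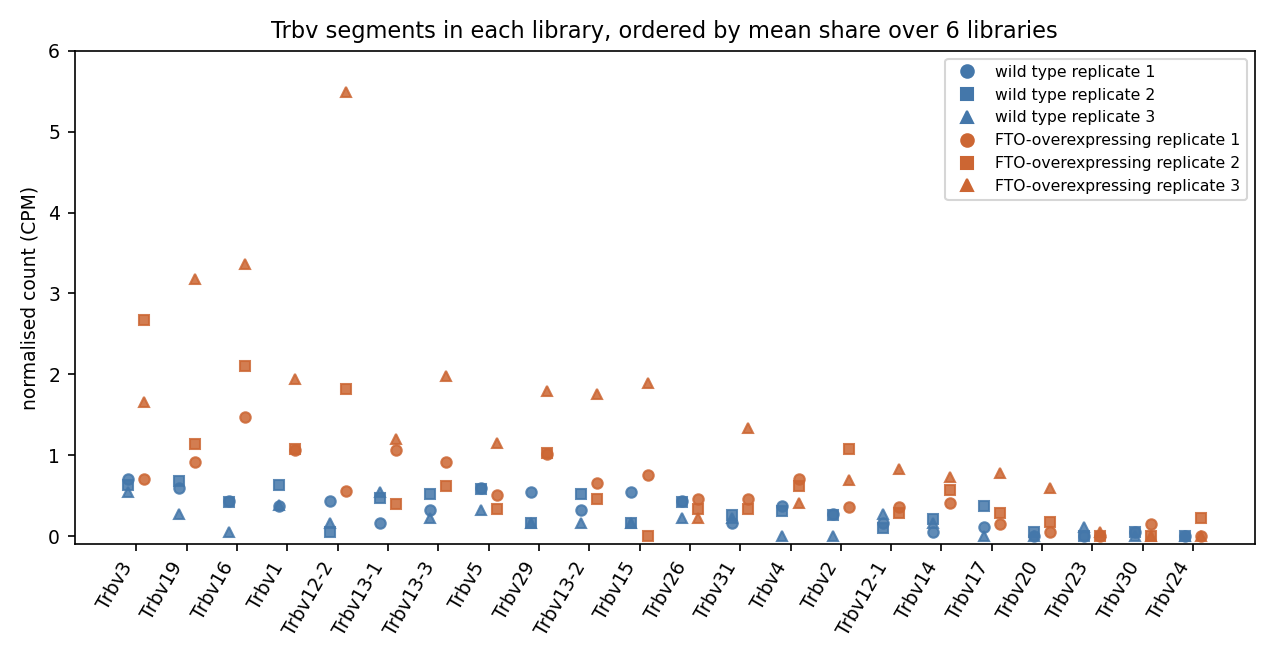
TMM-normalised counts (CPM) of each of the 22 Trbv segments in each library, ordered by mean share over the 6 libraries. FTO-overexpressing replicate 3 is the highest library for most of the segments, with Trbv12-2 at 5.49 CPM, while Trbv3 and Trbv2 are highest in FTO-overexpressing replicate 2 and Trbv26 and Trbv5 overlap between groups.

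Per unit of transcript length, Trbv3 ranked first among Trbv segments by mean share in wild-type libraries, followed by Trbv5, Trbv13-1 and Trbv1, with Trbv16 at rank 11 and Trbv12-2 at rank 12. In FTO-overexpressing libraries the order by the same measure was Trbv16, Trbv12-2, Trbv3 and Trbv29. Trbv3 was read at 13, 12 and 10 counts in wild-type libraries and 14, 47 and 36 in FTO-overexpressing libraries. Its share was 10.6%, 9.17% and 13.7% against 5.58%, 17.2% and 5.34%, so FTO-overexpressing replicate 2 stood above the rest and the other 2 of its group below all wild-type libraries. The fitted fold in level was 2.65 (95% interval 1.19 to 5.87; edgeR adjusted p = 0.418). Trbv1 was read at 7, 12 and 7 counts against 21, 19 and 42, a fitted fold of 2.91 (1.51 to 5.61; edgeR adjusted p = 0.244), and its share overlapped. Trbv19 counts were 11, 13 and 5 against 18, 20 and 69, a fitted fold of 3.36 (1.30 to 8.65; edgeR adjusted p = 0.389), with shares of 8.58% ± 1.58 and 8.24% ± 1.74. The groups did not overlap in level for Trbv3, Trbv1 and Trbv19, although FTO-overexpressing replicate 1 was close to the wild-type libraries for Trbv3, at 0.711 CPM against 0.704 CPM in wild-type replicate 1. Trbv29 (10, 3 and 3 counts against 20, 18 and 39) had a fitted fold of 4.39 and Trbv13-3 (6, 10 and 4 against 18, 11 and 43) of 3.27, with edgeR adjusted p of 0.229 and 0.365. Trbv13-1 and Trbv15 overlapped between groups, and Trbv15 had no count in FTO-overexpressing replicate 2 but 41 in replicate 3.

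Trbv5 and Trbv26 took smaller shares in the FTO-overexpressing libraries while their levels overlapped between groups. Trbv5 was read at 11.0, 11.0 and 6 counts against 10, 6 and 24.9, with a fitted fold of 1.35 (95% interval 0.569 to 3.19; edgeR adjusted p = 0.874). Its share was 8.93%, 8.41% and 8.22% in wild-type libraries and 3.98%, 2.19% and 3.70% in FTO-overexpressing libraries. Trbv26 was read at 8, 8 and 4 counts against 9, 6 and 5, or 0.358 ± 0.120 against 0.343 ± 0.113 CPM. Its share was 6.51%, 6.11% and 5.48% against 3.59%, 2.19% and 0.742%. These and Trbv16 were the 3 of 22 Trbv segments whose shares did not overlap between groups (1 higher and 2 lower). No test was run on shares, and the shares of a chain sum to 100% by construction. For scale, 5.9% of rows with a summed count of at least 1 were higher in level without overlap, and 5.1% lower. Those are levels and not shares, so nothing is read from this count of segments.

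**Figure D3:**
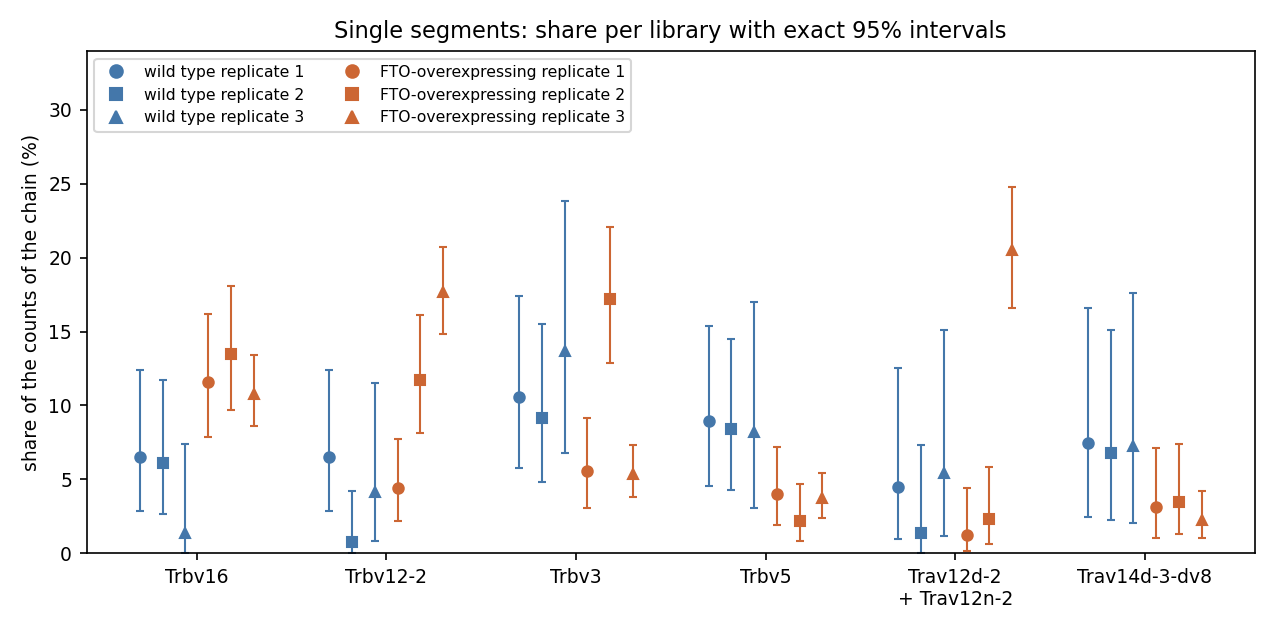
Share of the counts of its own chain taken by 6 segments in each library, with exact 95% Clopper-Pearson intervals; the Trav12d-2 and Trav12n-2 point is the sum of both identical copies. The pair reaches 20.5% only in FTO-overexpressing replicate 3, Trbv3 peaks in replicate 2 at 17.2%, and Trbv16 lies above 10% in all 3 FTO-overexpressing libraries.

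Among Trav segments the pair of identical copies Trav12d-2 and Trav12n-2 stood out in a single library. Together they had 3, 1 and 3 counts in wild-type libraries, 2 and 4 in FTO-overexpressing replicates 1 and 2, and 82 of 400 Trav counts in replicate 3. That is 4.50%, 1.35% and 5.45% of Trav counts against 1.25%, 2.31% and 20.5%, the last with an interval of 16.6% to 24.8%. The ratio of mean shares was 2.13 over all libraries and 0.473 without FTO-overexpressing replicate 3, so its direction rested on that library. The copy with a different sequence, Trav12-2, had 4, 2 and 0 counts against 6, 2 and 5, and no high value in replicate 3. In the same library Trbv12-2 also took its largest share; bulk counts do not show whether the same cells carried both chains.

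The other FTO-overexpressing libraries had different leading Trav segments. In replicate 1 Trav9-2 led with 14 counts (8.75% of Trav counts), followed by Trav19 with 13, and neither exceeded 2 counts in any wild-type library. Replicate 2 was led by Trav16 with 14.7 counts, a share of 8.48%, followed by Trav6-3 with 12. Trav16 was read at 1, 0 and 1 counts in wild-type libraries and at 2, 14.7 and 16 in FTO-overexpressing libraries; its close copy Trav16n is 97.7% identical to it, so reads could be split between them. Trav6n-6 was read at 4, 2 and 1 counts against 8, 5 and 25, and Trav4-3 at 1, 2 and 2 against 11, 3 and 11. For both, the FTO-overexpressing libraries lay above the wild-type ones in CPM, while their shares overlapped. With identical copies summed, wild-type replicates 1 and 2 were led by the pair Trav14d-1 and Trav14n-1 with 6 and 7 counts, followed by Trav14d-3-dv8 with 5 in each. In wild-type replicate 3 Trav9n-4 and the pair Trav14d-2 and Trav14n-2 had 6 counts each. Summing copies left the leading segments of FTO-overexpressing replicates 1 and 2 as given.

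Trav14d-3-dv8, a segment that delta chains can also use, had similar counts in both groups. It had 5, 5 and 4 counts in wild-type libraries and 5, 6 and 9 in FTO-overexpressing libraries, or 0.251 ± 0.0273 and 0.337 ± 0.0806 CPM, with overlapping groups. Its share was 7.5%, 6.76% and 7.27% against 3.12%, 3.47% and 2.25%. Across the 9 Trav segments with dv in their names, summed levels were 0.677, 0.683 and 0.220 CPM against 0.915, 1.08 and 1.58 CPM, a ratio of 2.26, and the 80 without dv gave 3.67. The shares of the dv segments overlapped between groups (14.5% ± 6.31 and 10.3% ± 1.48). Besides Trav14d-3-dv8, 4 of the 89 Trav segments had shares apart between groups: Trav6-5, Trav7-5, Trav12d-3 and Trav7-6. They are named because their shares did not overlap, and nothing is read from their number. All 4 had 0 counts in every wild-type library, whose Trav totals were 55.0 to 74.0 counts.

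Grouped into 19 families by segment number, Trav14 was the leading family over the 6 libraries with a mean of 17% of Trav counts. It took 19.5%, 24.3% and 21.8% in wild-type libraries and 11.9%, 11.6% and 13.0% in FTO-overexpressing libraries, without overlap. Its level nevertheless was 0.770 ± 0.154 against 1.5 ± 0.782 CPM, with all FTO-overexpressing libraries above all wild-type ones. Trav6 took 11.7% ± 4.47 against 16.6% ± 5.45 and Trav7 took 9.78% ± 3.42 against 11.4% ± 2.80, both with overlap. Trav12 took 10.5%, 8.11% and 9.09% against 8.75%, 5.78% and 25%, again through replicate 3. Trav16 stood at 13.9% in FTO-overexpressing replicate 2 and at no more than 5.00% elsewhere. By name, segments without d or n in their number took 44.6% of Trav counts in wild-type and 50.1% in FTO-overexpressing libraries on average. The d copies took 32.8% and 25.9% and the n copies 22.5% and 24.1%. All 3 classes overlapped between groups, and the first includes segments that have d or n copies.

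**Figure D4:**
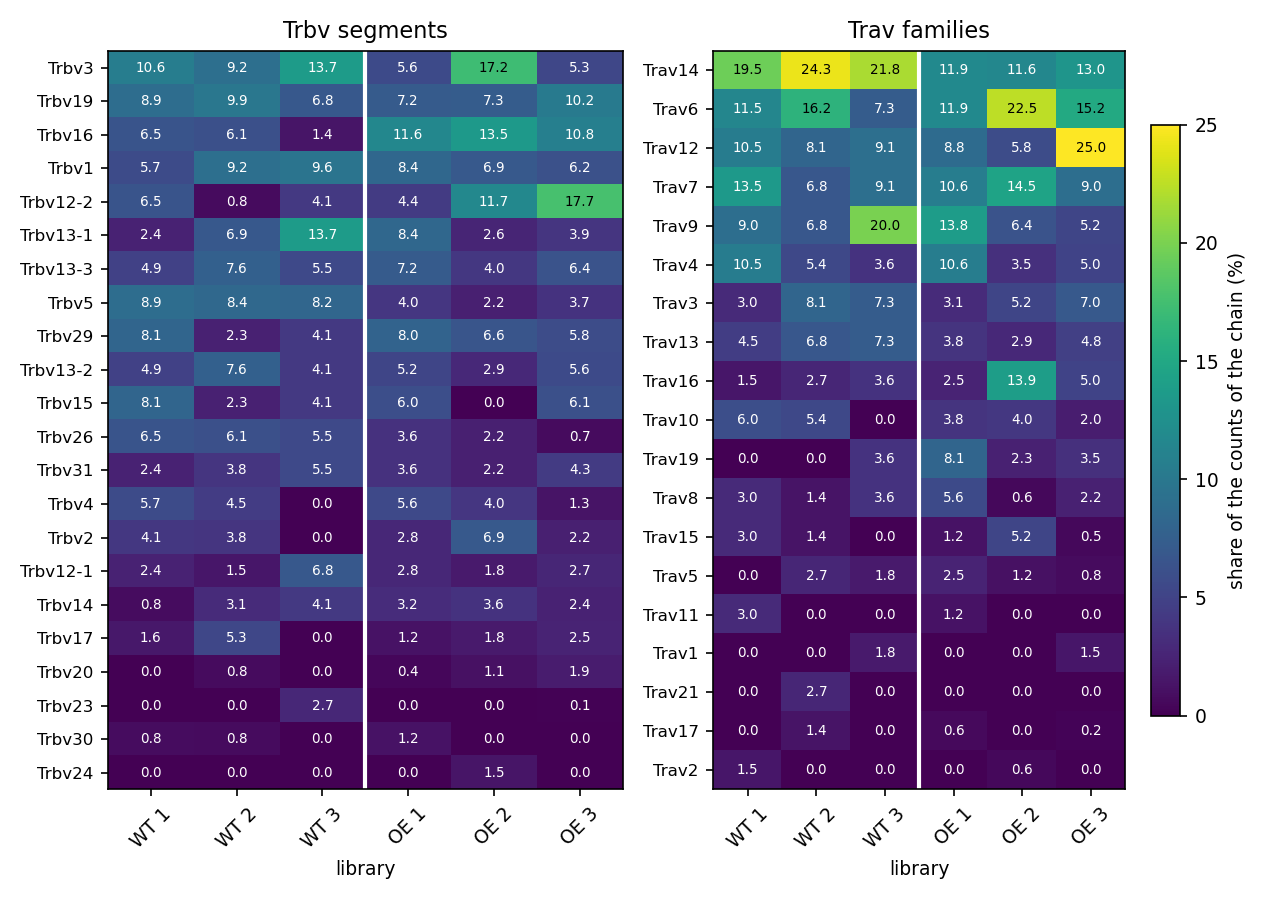
Share of chain counts (percent, colour scale from 0 to 25) for the 22 Trbv segments and the 19 Trav families in each library; WT and OE mark wild-type and FTO-overexpressing libraries 1 to 3. Trav14 is lighter in all 3 wild-type libraries than in the FTO-overexpressing ones, and single cells stand out for Trav12 (25%) and Trbv12-2 (17.7%) in OE 3 and for Trbv3 (17.2%) and Trav16 (13.9%) in OE 2.

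Diversity was compared at equal depth, since the number of segments seen grows with the counts drawn and the FTO-overexpressing libraries held more V counts. At the observed depth 30, 36 and 32 Trav segments had at least 1 count in wild-type libraries and 55, 53 and 70 in FTO-overexpressing libraries; for Trbv these were 19, 20 and 16 against 20, 19 and 20. With identical copies merged into 77 Trav units and every library thinned to 55 counts, the number of Trav units expected was 31.6, 31.3 and 29.0 against 29.7, 30.6 and 27.6. For Trbv, thinned to 73 counts, it was 17.8, 18.2 and 16 segments against 18.2, 17.1 and 17.2. The groups thus overlapped for both chains once depth was equal, and most of the 22 Trbv segments but fewer of the 77 Trav units were sampled at these depths. The effective number of segments (the exponential of the Shannon entropy, which is the number of equally common segments with the same evenness) was 33.7, 36.0 and 27.3 for Trav at observed depth against 38.4, 42.2 and 40.5. Thinned and merged it was 25.7, 26.9 and 23.8 against 24.3, 25.7 and 19.6, overlapping, with FTO-overexpressing replicate 3 lowest. For Trbv it was 16.1, 16.4 and 13.9 against 16.9, 14.1 and 15 at observed depth, and 15.2, 15.3 and 13.9 against 15.3, 12.7 and 13.2 when thinned. The inverse Simpson index weighs common segments more; it is biased upward at small totals, so it does not remove depth from the comparison. It was 44.0, 50.5 and 38.3 against 32.5, 38.1 and 27.0 for single Trav rows, without overlap. Once identical copies were merged it overlapped, at 35.9, 38.6 and 29.1 against 30.4, 34.8 and 16.2. Fractional counts of shared reads were present in 39 Trav and 2 Trbv segments and enter the single-row index. For Trbv the index was 16.5, 16.5 and 14.6 against 16.2, 11.7 and 12.4.

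**Figure D5:**
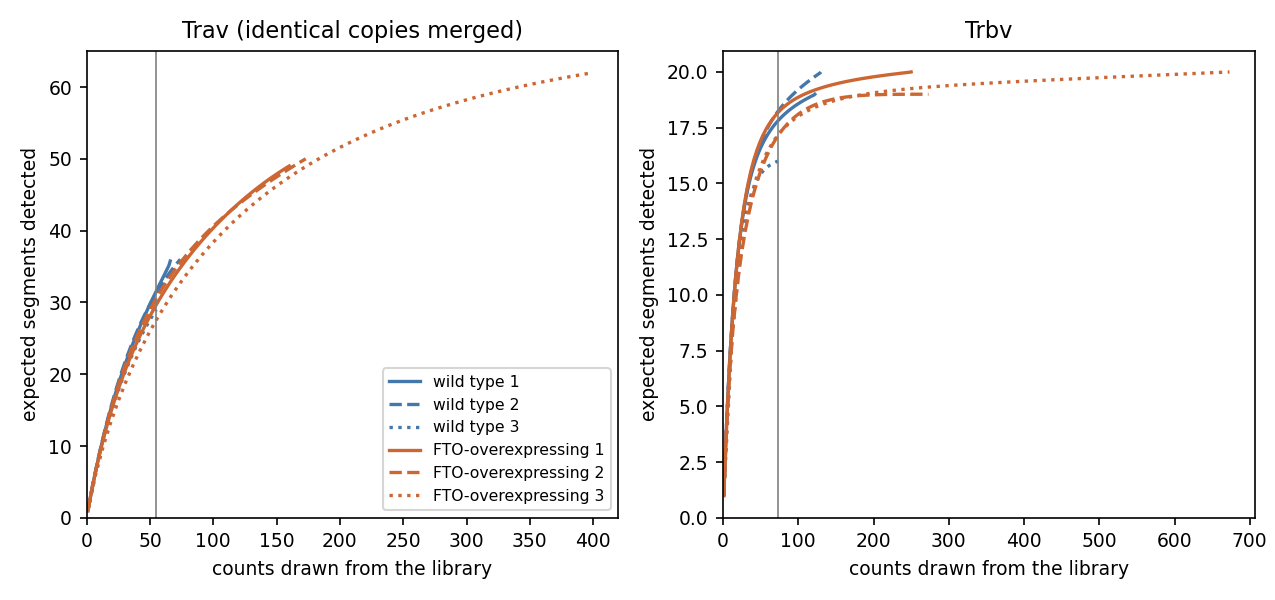
Expected number of Trav units (identical copies merged, left) and Trbv segments (right) against the number of counts drawn from each library; grey lines mark the common depths of 55 and 73 counts. At those depths the curves of the groups overlap, at 27.6 to 31.6 Trav units and 16 to 18.2 Trbv segments.

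Composition differed between libraries within a group as well as across groups. The shared part of the Trbv shares (the sum over segments of the smaller of both shares) was 67.6% to 77.5% between wild-type libraries, 71.6% to 79.4% between FTO-overexpressing libraries and 58.6% to 79.1% across groups. For Trav it was 29.4% to 46.2%, 49.2% to 51.3% and 36.5% to 49.9%. The ranges across groups overlapped those within groups, and for Trav the lowest values were between wild-type libraries, which held the fewest counts. Chi-square per degree of freedom between FTO-overexpressing libraries was 3.54 to 5.03 for Trbv, above the 1.43 to 1.77 between wild-type libraries; this measure grows with depth, so the groups are not compared on it.

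Segments of invariant T cells were rare. Trav11, which pairs with Traj18 in invariant NKT cells, had no count in any library, and its copy Trav11d had 2, 0 and 0 counts in both groups. Trav1, used with Traj33 by MAIT cells, had 0, 0 and 1 counts in wild-type libraries and 0, 0 and 6 in FTO-overexpressing libraries. At these counts no difference was detectable. Traj18 and Traj33 could not help here, since no Traj row reached a summed count of 1. Zbtb16, listed with these segments as a marker of such cells, had 281, 2672 and 3078 counts in wild-type libraries. In FTO-overexpressing libraries it had 1800, 340 and 347 counts, so the groups overlapped and libraries differed widely within each group. What this spread reflects was not tested. The beta segments that invariant receptors often use were present in all libraries, as they are in conventional T cells. Besides Trbv1, Trbv19 and Trbv29, Trbv13-2 had 6, 10 and 3 counts against 13, 8 and 38, with groups that overlapped.

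Markers of other cells and of T cell subsets were read in the same libraries. Cd8a, a co-receptor subunit of cytotoxic T cells, stood at 12.6, 7.41 and 9.41 CPM in wild-type libraries and 42.6, 73.1 and 91.4 CPM in FTO-overexpressing libraries and rose with a fitted fold of 7.04 (edgeR adjusted p = 0.0300). The call was lost on leaving out any 1 library other than FTO-overexpressing replicate 1 (edgeR adjusted p of 0.0543, 0.155 and 0.159 without wild-type replicates 1, 2 and 3, and 0.148 and 0.0646 without FTO-overexpressing replicates 2 and 3). It was also lost with the replicate block (0.121) and with limma-voom (0.0810). Cd4 stood at 14.4, 18.0 and 8.47 against 26.1, 20.9 and 39.7 CPM, a fitted fold of 2.13 (edgeR adjusted p = 0.282). Counts of Cd8a per Cd4 count were 0.879, 0.412 and 1.11 against 1.64, 3.49 and 2.30, without overlap. The 5 NK cell markers, summed, gave 5.41 to 12.9 against 19.5 to 23.9 CPM. Of these, only Eomes and Klre1 stood apart, while Ncr1, Klrb1c and Klra8 each overlapped between groups. Eomes alone stood at 13.8 CPM in FTO-overexpressing replicate 3. The 5 B cell markers, summed, gave 160 to 426 against 173 to 247 CPM. The 4 lung epithelium markers, summed, were lower without overlap, at 44280, 40950 and 46480 against 39550, 32490 and 38900 CPM; of the 4, Sftpb stood apart alone. Their part in the V segment levels was not tested. Whether the share of T cell subsets had a part in the V segment shares was not tested. The defining thymocyte genes Rag2 and Ptcra were at 0 in every library, Rag1 had 1 count (wild-type replicate 3), and Dntt had 3, 6 and 4 counts against 0, 3 and 3; the summed list of 10 thymocyte genes ranged from 36.9 to 42.9 and 41.6 to 42.6 CPM. The lymph node list of 6 genes overlapped between groups, at 66.4 to 139 and 84.4 to 99.8 CPM, with Glycam1 at 3 counts in wild-type replicate 2 and 0 elsewhere. Haemoglobin transcripts, a sign of blood in the tissue, took 2.26%, 1.54% and 0.856% of counts against 3.27%, 1.81% and 0.368%, lowest in the library with the most V counts; its part in the V segment levels was not tested.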

How the data were processed

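Lung RNA of 6 libraries was measured by poly(A)-selected stranded RNA-seq, per the labels' protocols. The authors deposited expected counts per gene, without scaling to depth. The submitters' processing notes name fastp, HISAT2 and StringTie without versions. The sources used here name no genome build, annotation or strand setting for counting. Between 9.66% and 10.3% of the values of a library were not whole. The 525 rows without a symbol had gene identifiers, took 0.119% to 0.143% of counts and stayed in library sizes and tests.

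Counts were rounded for edgeR 4.0.16 (R 4.3.3; filterByExpr with a minimum count of 10, TMM, quasi-likelihood F-test, Benjamini-Hochberg over 16989 genes, threshold 0.05). On simulated data this fit recovered 74% of 2-fold and 98% of 4-fold changes, with 12 false among 184 calls. The simulation gave every gene the same dispersion and changed only genes with a mean count of at least 10. It therefore does not cover V segments with fewer counts or a wider spread between libraries. Levels in CPM, shares and diversity used unrounded counts, except that the thinned effective numbers used counts rounded to whole numbers. DESeq2 1.42.0 and limma-voom (limma 3.58.1) were alternatives. Exact intervals came from scipy 1.17.1, with counts and totals rounded to whole numbers. Coding sequences and transcript lengths were read from GENCODE M21. Thinning used the hypergeometric expectation. Over all genes tested, chi-square per degree of freedom was 28.3 to 49.3 between libraries of a group and 21 to 47.2 across groups. The lowest value was that of wild-type replicate 1 with FTO-overexpressing replicate 1. All pairs differed beyond sampling noise, so no library was counted as a duplicate. Named segments were the 8 with the largest mean share in each chain, the leading segment of each library and the invariant-receptor segments; others are named for a share that did not overlap between groups, an identical or close copy, or inclusion in the edgeR fit, and were chosen after their values were seen. Segments, lists and rules were chosen with earlier results of these data known.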

Additional observations from a re-analysis of the deposited data

How the results depend on the processing

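The count of segments called higher was 0 under edgeR's RLE and upper-quartile scaling, thresholds of 0.1 and 0.01, the replicate block, limma-voom and each left-out library, and 2 without the filter and with DESeq2. A filter of a mean count of at least 50 left no segment to test. All genes called numbered 16, against 287 without the filter, 423 with DESeq2, 5 with limma-voom, 70 and 1 at adjusted p of 0.1 and 0.01, and 1 to 49 with a library left out; the cause was not tested beyond the settings themselves. With the replicate number as a block, edgeR called 2 genes and 0 segments. Deviations of same-numbered libraries from their group means correlated at r = 0.108, -0.308 and -0.308. Those of differently numbered libraries correlated at -0.2 to 0.43. With 3 libraries per group, these values cannot decide whether same-numbered libraries shared more than a number.

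The ratio of summed levels ranged from 2.56 to 4.03 for Trav and 2.42 to 3.99 for Trbv with a library left out, and from 3.32 to 3.94 and 3.05 to 3.48 under the other settings. Over single Trav rows the ratio of the effective number of segments was 1.25 (1.16 to 1.32 with a library left out). It was 0.957 thinned to equal depth and 0.735 by inverse Simpson, again over single rows, and 1.04 by family. With identical copies merged the thinned ratio was 0.910 and the inverse Simpson ratio 0.785. The ratio of single Trav rows detected at equal depth was 0.924 (0.861 to 0.944), but 1.57 at observed depth counting any value above 0 (1.82 counting at least 1) and 1.02 over segments with a summed count of at least 10. With identical copies merged the ratio at equal depth was 0.9555. For Trbv the ratio of effective numbers was 0.993 (0.942 to 1.03), and 0.845 by inverse Simpson. Merging identical copies was added after seeing the data. Small counts limit every single-segment value.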

Other observations

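By position along the locus, in the order of GENCODE M21 entries (128 Trav and 35 Trbv rows, split into 3 parts of equal number), none of the parts of either locus stood apart between groups in its share. The first part of the Trav locus took 29.0%, 27.0% and 22.7% of Trav counts in wild-type libraries and 14.6%, 24.9% and 26.8% in FTO-overexpressing libraries. The last part, nearest the J segments, took 36.7%, 43.2% and 30.9% against 55.3%, 34.8% and 35.7%, and FTO-overexpressing replicate 1 was the highest library there and the lowest in the first part. The middle part of the Trbv locus, which holds Trbv12-2 and Trbv16, took 44.7%, 50.4% and 43.8% of Trbv counts against 54.6%, 48.6% and 67.5%. In CPM each part of both loci was higher in all FTO-overexpressing libraries than in all wild-type ones, with ratios of means from 2.52 to 4.33.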
